A study of Homo sapiens with 16 samples.

Results

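INTS13 peaks called in HEK293T cells after depletion of HDGF were set against the HDGF peaks called in cells given a control depletion, to ask where INTS13 lies in depleted cells relative to the sites that HDGF held in control cells. The peaks compared were all of those on chromosomes 1 to 22, X and Y in the 2 lists, 105994 for INTS13 after HDGF depletion and 106674 for HDGF control, which makes 212668 of the 327678 peaks in the 5 lists of the series. An INTS13 peak was counted as lying at an HDGF site, and an HDGF site as holding INTS13, when the 2 peaks had at least 1 base in common. The 31233 INTS13 peaks of the control depletion were set against the same HDGF list, so the INTS13 lists share it in every comparison below.

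The data are chromatin immunoprecipitation followed by sequencing (ChIP-seq) in HEK293T, a long-established line of human embryonic kidney cells, with 150-bp paired-end reads. Of the 16 samples, 2 are INTS13 ChIP from cells treated for 72 h with siPOOLs against HDGF (pools of small interfering RNAs), 2 are INTS13 ChIP from the control depletion and 2 are HDGF ChIP from the control depletion. HDGF ChIP and INTS13 ChIP of cells harvested after 24 h in medium with no glucose, 2 samples each, serve where starved cells or all 5 lists are named. The same INTS13 antibody (Bethyl Laboratories) was used in depleted and control cells, and the HDGF antibody came from Proteintech. Labels give all cells as wild type, with the depletion marked for the siPOOL group. No HDGF ChIP of depleted cells and no measure of the HDGF protein left in them was analysed here. Each group has 1 peak list over its 2 replicates, so replicate error is unknown and no test between conditions was possible. Intervals beside shares are exact (Clopper-Pearson) 95% intervals and cover counting error only.

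INTS13 is a subunit of Integrator, a complex that associates with RNA polymerase II, cleaves nascent RNA with its endonuclease module and was first described in the 3′ processing of small nuclear RNAs (snRNAs). Integrator also acts near the starts of protein-coding genes, where it terminates paused polymerase. HDGF (heparin-binding growth factor, also called hepatoma-derived growth factor) is a chromatin protein with a PWWP domain, a fold that binds DNA and methylated histone tails and is shared with its relatives PSIP1 and HDGFL2.

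Promoters that share bases with peaks of both proteins, of INTS13 alone or of HDGF alone are illustrated first by their sequences. The 7 promoters shown are those of the first genes, by the ranking used for named genes, whose RefSeq promoter entry (GRCh38.p14, 250 bases before to 50 bases after the start, read on the gene's strand) shares at least 1 base with the peak. At LIN9, CSK and EIF4EBP2 the HDGF peak reaches only the upstream part of the entry and not the start itself. Capitals mark matches, on either strand, to 9 short motifs searched in all 15841 promoters of protein-coding genes with an entry. The TATA box, with the letters TATAAA, is in 9.63% of all promoters. The CCAAT box is searched by the letters of its name and is in 36.4%. The GC box of the SP family, GGGCGG, is in 58.5% of the promoters. The core recognised by ETS family factors, CCGGAAG, is in 14.2%, that of NRF1, GCATGCG, is in 5.14% and that of YY1, GATGGCG, is in 5.71%. The core of the CREB family, TGACGT, is in 9.67%, the E-box, CACGTG, in 8.88% and the AP-1 motif, TGANTCA, in 5.75% of them. Matches of different motifs may share bases, and a match is not a measured site.
Peaks of both lists shared bases with the entries of SPANXB1 (chrX:141002344-141002643, plus strand), FBXO28 (chr1:224113861-224114160, plus strand) and LIN9 (chr1:226309454-226309753, minus strand).
SPANXB1: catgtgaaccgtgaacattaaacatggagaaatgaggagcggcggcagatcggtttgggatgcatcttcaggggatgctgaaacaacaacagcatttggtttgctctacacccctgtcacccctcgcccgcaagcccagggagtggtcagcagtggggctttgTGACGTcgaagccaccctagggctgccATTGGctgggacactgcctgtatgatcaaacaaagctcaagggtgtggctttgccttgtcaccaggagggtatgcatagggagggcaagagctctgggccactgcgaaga
FBXO28: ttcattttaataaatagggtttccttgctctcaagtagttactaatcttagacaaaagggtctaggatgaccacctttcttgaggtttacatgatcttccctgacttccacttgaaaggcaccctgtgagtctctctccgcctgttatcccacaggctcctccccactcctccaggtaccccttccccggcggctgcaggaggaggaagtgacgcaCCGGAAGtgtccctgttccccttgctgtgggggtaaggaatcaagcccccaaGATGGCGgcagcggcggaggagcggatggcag
LIN9: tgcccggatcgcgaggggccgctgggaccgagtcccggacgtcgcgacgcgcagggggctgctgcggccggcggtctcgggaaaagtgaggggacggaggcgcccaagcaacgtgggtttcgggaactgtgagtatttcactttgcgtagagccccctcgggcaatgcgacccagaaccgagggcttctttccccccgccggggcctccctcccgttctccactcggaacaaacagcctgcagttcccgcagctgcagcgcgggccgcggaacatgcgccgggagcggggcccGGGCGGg
An INTS13 peak of depleted cells, with no HDGF control summit within 1 kb of the start, shared bases with the entries of LAMP1 (chr13:113296989-113297288, plus strand) and TM2D1 (chr1:61725092-61725391, minus strand).
LAMP1: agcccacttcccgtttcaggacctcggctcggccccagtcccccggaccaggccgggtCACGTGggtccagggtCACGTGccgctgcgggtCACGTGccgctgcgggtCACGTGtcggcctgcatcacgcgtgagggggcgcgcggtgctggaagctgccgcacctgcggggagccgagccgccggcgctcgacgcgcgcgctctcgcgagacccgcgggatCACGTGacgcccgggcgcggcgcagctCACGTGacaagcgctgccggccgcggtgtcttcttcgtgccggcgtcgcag
TM2D1: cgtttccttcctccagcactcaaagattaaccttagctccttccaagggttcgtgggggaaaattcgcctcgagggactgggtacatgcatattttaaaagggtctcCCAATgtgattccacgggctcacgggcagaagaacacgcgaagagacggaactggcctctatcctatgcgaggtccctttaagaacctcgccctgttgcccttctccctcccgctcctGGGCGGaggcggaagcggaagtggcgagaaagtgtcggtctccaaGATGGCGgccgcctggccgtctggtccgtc
An HDGF control peak, with no INTS13 summit of depleted cells within 1 kb of the start, shared bases with the entries of CSK (chr15:74788294-74788593, plus strand) and EIF4EBP2 (chr10:70403895-70404194, plus strand).
CSK: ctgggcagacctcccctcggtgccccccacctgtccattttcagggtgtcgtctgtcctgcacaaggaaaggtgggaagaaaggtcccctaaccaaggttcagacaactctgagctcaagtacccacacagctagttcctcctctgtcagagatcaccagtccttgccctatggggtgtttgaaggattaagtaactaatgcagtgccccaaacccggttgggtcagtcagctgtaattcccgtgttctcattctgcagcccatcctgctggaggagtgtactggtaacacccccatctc
EIF4EBP2: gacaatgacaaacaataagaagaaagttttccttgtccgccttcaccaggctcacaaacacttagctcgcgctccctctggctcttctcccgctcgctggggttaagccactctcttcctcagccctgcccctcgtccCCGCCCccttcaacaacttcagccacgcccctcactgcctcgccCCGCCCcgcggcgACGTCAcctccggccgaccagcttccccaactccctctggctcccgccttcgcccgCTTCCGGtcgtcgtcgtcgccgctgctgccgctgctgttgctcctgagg
The LAMP1 entry holds 6 E-boxes, which no other of the 15841 promoters does, and 25 promoters hold 3 or more. The CSK entry holds none of the 9 motifs, and 4 CpG dinucleotides against 49 in the LAMP1 entry. FBXO28 and TM2D1 each have a YY1 core just downstream of the start.

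Of the 105994 INTS13 peaks of depleted cells, 27334 lay at an HDGF control site (25.8%, interval 25.5 to 26.1). In control cells 14066 of 31233 INTS13 peaks did (45.0%, interval 44.5 to 45.6). The depletion list is the longer, and its 31233 strongest peaks by the authors' p-value lay at an HDGF site in 13114 cases (42.0%, interval 41.4 to 42.5). Seen from HDGF, 24766 of 106674 sites held an INTS13 peak of depleted cells (23.2%, interval 22.96 to 23.5), against 11512 (10.8%, interval 10.6 to 10.98) for INTS13 control and 12535 (11.8%, interval 11.6 to 11.9) for the 31233 strongest INTS13 peaks of depleted cells. HDGF control peaks cover 53.4 Mb, which is 1.80% of the length spanned by the lists.

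Depth differed between the lists. The authors' fold enrichments step by a fixed amount that stands for 1 read, and taken this way all folds of the 3 lists came out as whole reads (100% within 0.01 reads). They give a background of 4.20 reads per position for INTS13 after HDGF depletion, 6.40 for INTS13 control and 6.69 for HDGF control. Each list has 1 such value for all its peaks, so the folds carry no background, from input or otherwise, particular to a place. The part of regional differences in read number in the overlap was not tested. A median peak had 16 reads at its summit in INTS13 after HDGF depletion, 22 in INTS13 control and 21 in HDGF control, and the weakest peaks had 12, 17 and 16. The longest INTS13 list thus has the lowest background and peaks of fewer reads, and the part of depth in its length was not tested. Median peak width was 301 bp for INTS13 after HDGF depletion, 309 bp for INTS13 control and 338 bp for HDGF control.

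The share at HDGF sites grew with peak strength. It was 12.8% in the weakest of 10 equal classes of INTS13 peaks of depleted cells and 59.0% in the strongest, and no class lay below the weaker one before it. In INTS13 control the weakest class was at 30.2% and the strongest at 76.3%. Of the 100 strongest INTS13 peaks of depleted cells 95 lay at an HDGF site, as did 867 of the strongest 1000 and 5981 of the strongest 10000 (59.8%). The highest count at a summit was 400 reads in each of the 3 lists, although their backgrounds differ. No filter for regions of excess reads was applied here, and 3823 INTS13 peaks of depleted cells recurred in all 5 lists. Whether the strongest peaks are specific to either protein was not tested. From the side of HDGF, 12.1% of sites in the weakest class and 52.9% in the strongest held INTS13 in depleted cells. Width moved with the overlap as well: 11.99% of the narrowest class of HDGF sites, of 200 to 209 bp, held INTS13 in depleted cells, against 61.4% of the widest class, of 844 bp and more. A wider peak has more bases that can be shared, and the parts of width and strength were not told apart.

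**Figure D1:**
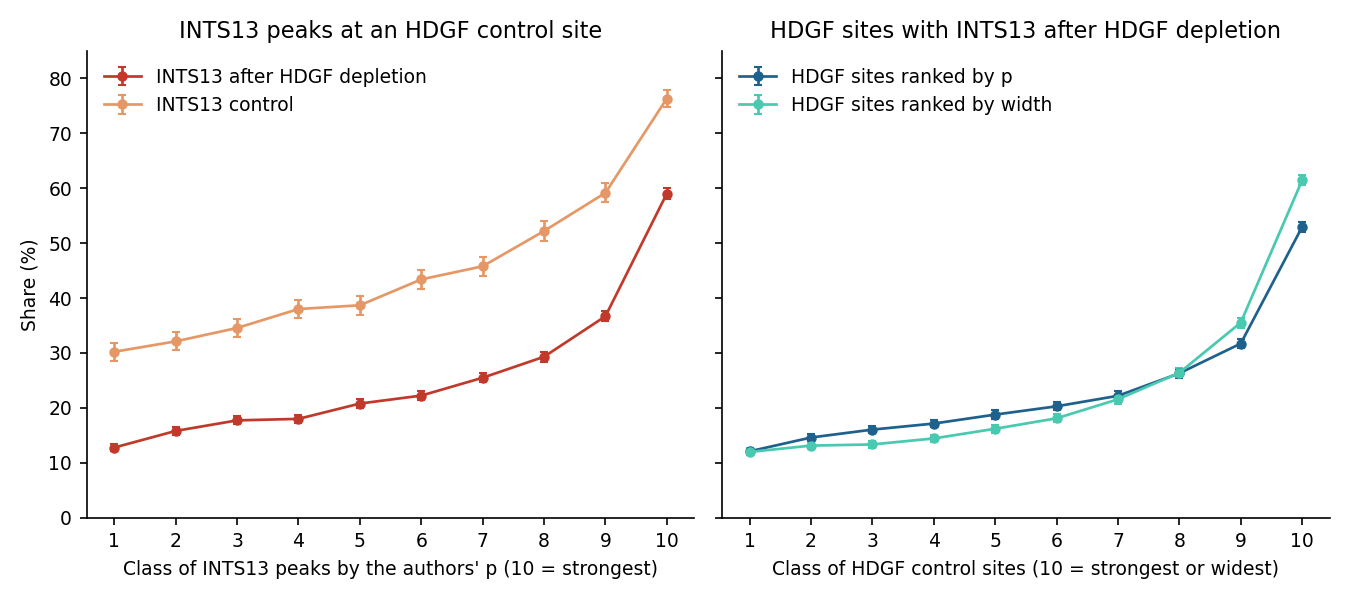
The left panel plots the share of INTS13 peaks at an HDGF control site (%) in 10 classes of equal size by the authors' p-value, for the depletion and the control list, and the right panel the share of HDGF control sites with an INTS13 peak of depleted cells, by class of p-value or of width; bars are exact 95% intervals. Shares reach 59.0% in the strongest class of INTS13 peaks after HDGF depletion and 61.4% in the widest class of HDGF sites.

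Whether an HDGF site held INTS13 already in control cells divides the sites further. INTS13 was present in both depleted and control cells at 8128 HDGF sites, in depleted cells only at 16638, in control cells only at 3384 and in neither at 78524. The 8128 sites with INTS13 in both conditions were wide, with a median of 777 bp, and 18.1% of them exceeded 2 kb. Sites with INTS13 in depleted cells only had a median width of 419 bp, those with INTS13 in control cells only 430 bp and those without INTS13 313 bp. After 24 h without glucose, 74.96% of the first class were still under an HDGF peak, as were 38.0% of the sites with INTS13 in depleted cells only, 40.3% of those with INTS13 in control cells only and 10.96% of those without INTS13. Put the other way round, of the HDGF sites kept in starved cells 55.5% (interval 54.8 to 56.1) held INTS13 after HDGF depletion, and of those not kept 14.6% (interval 14.4 to 14.9). On chromosomes 1, 13, 22 and X lay 86.9% of the sites with INTS13 in both conditions and 37.9% of those without INTS13. The value was 61.5% for depleted cells only and 81.5% for control cells only. Median HDGF reads were 24 in the first class and 21 at sites without INTS13. The part of width, strength and chromosome in these shares was not tested.

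Of the INTS13 peaks of depleted cells, 15286 (14.4%) overlapped an INTS13 control peak and 90708 did not. Those found in control cells lay at an HDGF site in 62.4% of cases (interval 61.6 to 63.1), and those not found in control cells in 19.6% (interval 19.4 to 19.9). Among the 31233 strongest peaks of depleted cells the shares were 72.5% of 9089 and 29.4% of 22144. Peaks of depleted cells not called in control cells therefore lay at HDGF sites less often than those called in both, at full and at equal length. These 2 classes also differ in strength and width, with a median of 18 reads and 449 bp for peaks found in control cells and of 16 reads and 288 bp for the others. They differ in chromosome too: 83.8% of the peaks found in control cells lay on chromosomes 1, 13, 22 and X, against 44.0% of the others. Over those chromosomes 36.8% of all INTS13 peaks of depleted cells lay at an HDGF site, and over the rest 14.9%. The part of strength, width and chromosome in the contrast was not tested.

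Most HDGF sites with INTS13 held a single peak. Of the 24766 sites, 21391 held 1 INTS13 peak of depleted cells, 2520 held 2, 511 held 3, 162 held 4 and 182 held 5 or more. The largest numbers lay in wide HDGF domains of chromosomes 9 and 13. On chromosome 9, 3 adjoining HDGF peaks between 79573703 and 79733130, inside a protein-coding gene, measure 52225, 52943 and 53866 bp and held 41, 34 and 32 INTS13 peaks in depleted cells, and 31, 37 and 36 in control cells. On chromosome 13, outside protein-coding genes, the HDGF peak from 61886284 to 61939438 held 23 INTS13 peaks in depleted cells and 23 in control cells, that from 62080845 to 62127421 held 21 and 23, and that from 62127666 to 62174843 held 20 and 11. Without the 2091 HDGF peaks over 2 kb the share of INTS13 peaks of depleted cells at an HDGF site was 21.7%.

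Overlap did not mean a common summit. The nearest HDGF summit lay a median of 2234 bp from an INTS13 summit of depleted cells, 972 bp from an INTS13 control summit and 1045 bp from a summit among the 31233 strongest of depleted cells. Within 100 bp of an HDGF summit lay 5.93% of INTS13 summits of depleted cells and 9.64% of INTS13 control summits, within 250 bp 13.5% and 20.5%, and within 1 kb 36.3% and 50.6%. Where the peaks overlapped, they had a median of 241 bases in common, which is 62.7% of the INTS13 peak and 35.2% of the HDGF peak, and their summits lay a median of 245 bp apart. The INTS13 peaks away from HDGF were often near it: a median gap of 4940 bp separated them from the nearest HDGF peak, 24.0% lay within 1 kb and 38.5% farther than 10 kb.

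Density around HDGF summits gives the local excess. Within 100 bp of an HDGF control summit there were 6259 INTS13 summits of depleted cells, 1.22 times the density at 5 to 10 kb from the same summits. The ratio was 1.08 at 100 to 200 bp and 1.01 at 200 to 300 bp. For INTS13 control it was 1.36, 1.06 and 0.99 at the same distances, and for the 31233 strongest INTS13 peaks of depleted cells 1.31, 1.10 and 1.01. Chromosome Y, with 1 HDGF peak, was left out here, and the other 23 chromosomes all had a ratio above 1 within 100 bp for INTS13 after HDGF depletion, from 1.07 on X to 3.15 on chromosome 4, with a median of 1.29, and the chromosome 4 value rests on 19 summits. The excess was greatest at HDGF sites that also had an INTS13 control peak, at 1.59, and was 1.12 at the 95162 sites without one. It was 1.504 in the strongest of the 10 classes of HDGF sites and 1.37 at HDGF sites within 2.5 kb of a gene start, where it was still 1.24 at 200 to 300 bp and 1.302 at 300 to 400 bp. At the summits of INTS13 control, for comparison, INTS13 of depleted cells had a ratio of 2.15.

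**Figure D2:**
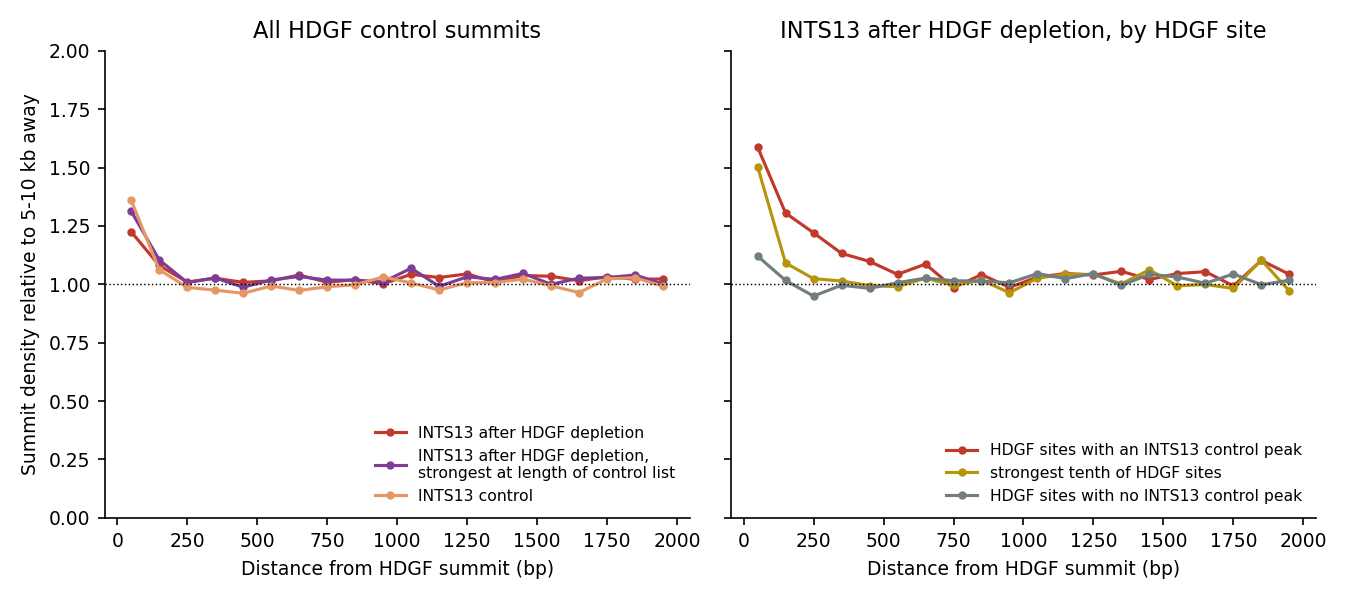
The left panel plots the density of INTS13 summits by distance from HDGF control summits (bp, windows of 100 bp), divided by the density 5 to 10 kb away, for INTS13 after HDGF depletion, for its 31233 strongest peaks and for INTS13 control; the right panel plots the same for INTS13 after HDGF depletion at 3 kinds of HDGF site. For all sites the ratio is 1.22 within 100 bp and 1.08 at 100 to 200 bp and stays near 1 beyond, while at HDGF sites with an INTS13 control peak it is 1.22 at 200 to 300 bp and 1.13 at 300 to 400 bp.

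The neighbourhoods themselves were uneven. Summits of INTS13 after HDGF depletion numbered 351 per Mb inside HDGF control peaks and 30.0 per Mb outside them, a ratio of 11.7. For INTS13 control the densities were 205 and 6.98 per Mb, a ratio of 29.3, and for the 31233 strongest peaks of depleted cells the ratio was 23.8. Of 2421 bins of 1 Mb with a peak in any list, the 242 with most HDGF control peaks held 60.7% of HDGF control peaks, 56.5% of INTS13 peaks of depleted cells, 74.4% of INTS13 control peaks and 88.4% of the INTS13 peaks of depleted cells at an HDGF site. Over the 2421 bins the numbers of INTS13 peaks of depleted cells and of HDGF control peaks had a Spearman correlation of 0.85, and those of INTS13 control and HDGF control of 0.56. This describes bins that differ in gene content, mappable length and depth in all lists at once. The 2 correlations were taken at the full, unequal lengths of the INTS13 lists and were not compared at equal length. INTS13 control is the shorter list, with 79.4% of its peaks on chromosomes 1, 13, 22 and X. On chromosome 2, for example, it had 0.319 peaks per Mb, against 7.76 for INTS13 after HDGF depletion.

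Chromosomes 1, 13, 22 and X held 49.7% of the INTS13 peaks of depleted cells, 79.4% of those of INTS13 control and 46.7% of the HDGF control peaks. Of the INTS13 peaks of depleted cells on chromosome 13, 56.2% lay at an HDGF site, and HDGF peaks cover 9.80% of that chromosome. Chromosome 1 was at 40.3% with 6.98% covered, chromosome 22 at 29.2% with 6.84% covered, and chromosome 2 at 3.26% with 0.337% covered. Chromosome X was unlike the other 3: it had 49.3 INTS13 peaks of depleted cells per Mb but 17.9 HDGF peaks per Mb, and 8.91% of its INTS13 peaks lay at an HDGF site. Chromosomes 9 and 16 lay above their neighbours in covered length, at 29.9% with 1.23% covered and 35.7% with 1.20% covered. Without chromosomes 1, 13, 22 and X the share was 14.9% for INTS13 after HDGF depletion (7954 of 53269 peaks, interval 14.6 to 15.2) and 33.2% for INTS13 control (2134 of 6419 peaks, interval 32.1 to 34.4). The ratio of density inside to outside HDGF peaks was above 1 on all 23 chromosomes for INTS13 after HDGF depletion, from 3.22 on chromosome 22 to 28.6 on chromosome 9. With the lists at their full, unequal lengths INTS13 control had the higher ratio on 22 of the 23, with X as the exception. At equal length the order depended on the chromosomes: over 1, 13, 22 and X the ratio was 10.1 for the 31233 strongest INTS13 peaks of depleted cells and 9.87 for INTS13 control, and on all others 22.2 and 37.5.

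**Figure D3:**
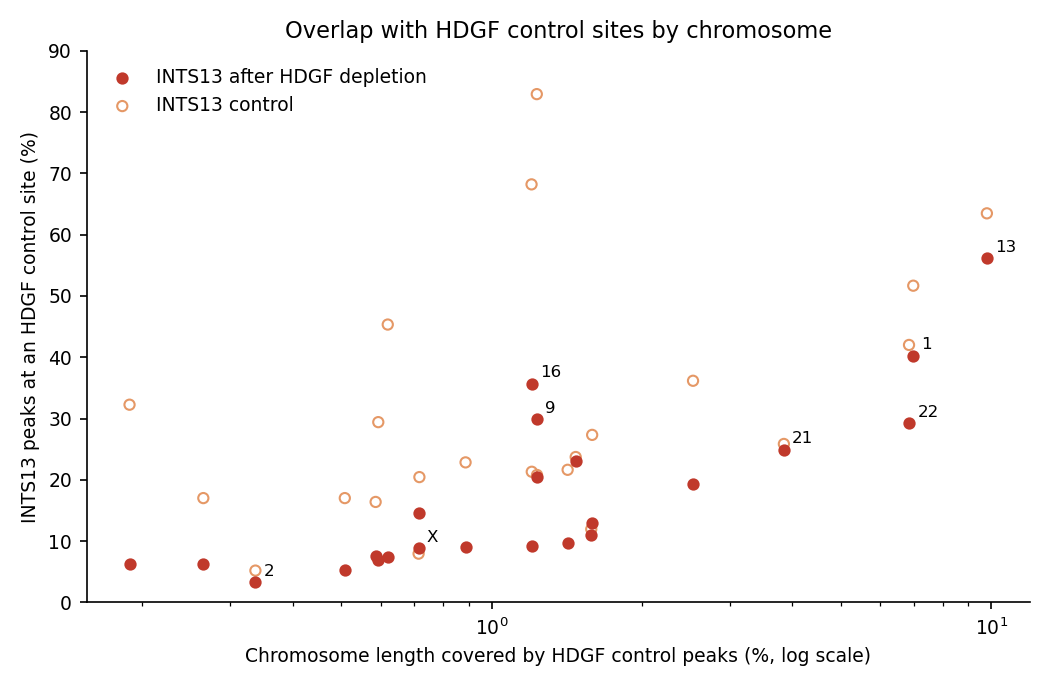
Each point is a chromosome (1 to 22 and X), with the percentage of its length covered by HDGF control peaks on a log axis and the percentage of INTS13 peaks at an HDGF control site, for INTS13 after HDGF depletion (filled, some labelled by chromosome) and INTS13 control (open). Shares for INTS13 after HDGF depletion run from 3.26% on chromosome 2 to 56.2% on chromosome 13 and tend to be higher where HDGF covers more.

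Gene bodies and gene starts differed between the proteins. Of the INTS13 peaks of depleted cells 51.8% had their summit inside a protein-coding gene and 2.27% within 1 kb of a start, and of the HDGF control peaks 68.8% and 1.65%. Inside genes 29.3% of the INTS13 peaks of depleted cells lay at an HDGF site (interval 28.9 to 29.7), against 21.9% outside genes and starts (interval 21.5 to 22.3) and 23.3% within 1 kb of a start (interval 21.6 to 25.04). In INTS13 control the shares were 49.7% inside genes, 42.4% elsewhere and 25% near starts. The shares of the 2 INTS13 lists were closest near starts, where they rest on 2404 peaks of depleted cells and 576 of INTS13 control. The lists were taken here at their full, unequal lengths, and the places were not compared at equal length. Seen from HDGF the order of the places was reversed. INTS13 of depleted cells was at 19.7% of the HDGF sites inside genes (interval 19.4 to 20.0). It was at 25.9% of those within 1 kb of a start (interval 23.8 to 28.0) and 31.2% of those elsewhere (interval 30.7 to 31.8).

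Starts were examined on the 15841 protein-coding genes, of 20033, for which strand and start are known. A summit of INTS13 after HDGF depletion lay within 1 kb of 2200 starts, which is 13.9% of them. A summit of HDGF control lay within 1 kb of 1638 starts (10.3%), and a summit of INTS13 control within 1 kb of 586 (3.7%). Both INTS13 of depleted cells and HDGF control were present at 659 starts (4.16%), INTS13 alone at 1541 (9.73%) and HDGF alone at 979 (6.18%). Of the starts with INTS13 in depleted cells 30.0% had HDGF (interval 28.0 to 31.9), and of those with INTS13 in control cells 32.8% (interval 29.0 to 36.7). Of the starts with HDGF 40.2% had INTS13 in depleted cells (interval 37.8 to 42.7) and 11.7% had it in control cells (interval 10.2 to 13.4).

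The proteins stood at different distances from the start. Within 200 bp of a start, 607 starts had an INTS13 summit of depleted cells, against 535 in a window of the same size centred 1.5 kb upstream and 512 in one centred 1.5 kb downstream, so that the start window had 1.16 times the mean of its flanks. HDGF control was at 129 starts in the start window, 739 upstream and 1105 downstream, which is 0.140 times its flanks. INTS13 control was at 272, 98 and 66 (3.32 times), and the 31233 strongest INTS13 peaks of depleted cells at 282, 141 and 136 (2.04 times). HDGF control summits were few where INTS13 summits were frequent: in the 100 bp centred on the start, 172 starts had an INTS13 summit of depleted cells, 82 an INTS13 control summit and 23 an HDGF control summit.

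**Figure D4:**
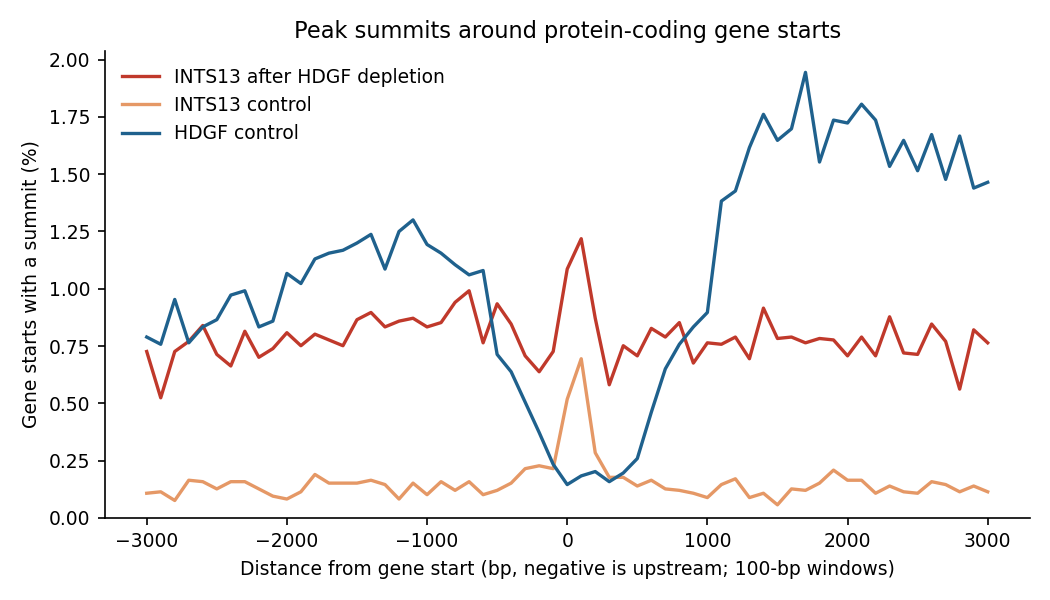
The percentage of 15841 protein-coding starts with a summit in each 100-bp window is plotted against distance from the start (bp, negative upstream) for INTS13 after HDGF depletion, INTS13 control and HDGF control. INTS13 has its maximum in the window centred 100 bp downstream of the start in both conditions (193 starts after HDGF depletion and 110 in control), while HDGF drops near the start and is highest 1 to 2 kb downstream.

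INTS13 peaks of depleted cells divide further by whether they lay at an HDGF site. Since HDGF control peaks are themselves few at starts, this division sets in part where its 2 classes lie, and their values are a description only. Peaks at an HDGF site were at 64 starts in the start window, 177 upstream and 212 downstream (0.329 times the flanks), while INTS13 peaks of depleted cells away from HDGF were at 543, 358 and 300 (1.65 times). Of the 172 starts with an INTS13 summit in the central 100 bp, 155 had one from a peak away from HDGF. Peaks of depleted cells found in INTS13 control also were at 176, 44 and 39 (4.24 times), and those not found in control at 431, 491 and 473 (0.894 times). The peaks not found in control cells varied from window to window, with 133 starts in the 100-bp window centred 100 bp downstream of the start, 73 in the one centred 300 bp downstream and 86 in the one centred 200 bp upstream. HDGF in starved cells had no such trough, at 510 starts, 399 upstream and 610 downstream (1.01 times).

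Among the 659 starts with both proteins, the INTS13 and HDGF peaks overlapped at 354 (53.7%), and the nearest summits of the 2 lists lay a median of 369 bp apart. INTS13 of depleted cells had its nearest summit a median of 504 bp from the start and HDGF control 684 bp. HDGF was the farther of the 2 at 425 of the 659 starts (64.5%), and its summit was more than 500 bp away at 467 (70.9%), against 331 (50.2%) for INTS13. With a window of 500 bp the count of starts with both fell to 132. INTS13 control was present at 25.04% of the starts with both, at 17.9% of those with INTS13 of depleted cells alone and at 2.76% of those with HDGF alone.

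At the 3′ ends of the same genes the order was reversed. A summit of INTS13 after HDGF depletion lay within 1 kb of 1715 ends (10.8%), and one of HDGF control within 1 kb of 2258 (14.3%). Ends outnumbered starts 1.38 times for HDGF control, whereas for INTS13 the ratio of ends to starts was 0.780 in depleted cells and 0.567 in control cells. Both proteins were at 716 ends (4.52%), which is 41.7% of the ends with INTS13 in depleted cells (interval 39.4 to 44.1) and 31.7% of those with HDGF (interval 29.8 to 33.7).

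Promoter letters were counted over the whole of each RefSeq entry that shared at least 1 base with a peak. Such an entry is called under the peak, although the letters counted may lie beside it. The start itself was covered by a peak at 558 genes for INTS13 of depleted cells and at 142 for HDGF control. An INTS13 peak of depleted cells covered some part of 905 of the 15841 entries (5.71%), an HDGF control peak of 381 (2.41%), an INTS13 control peak of 332 (2.1%), and both INTS13 of depleted cells and HDGF of 112 (0.707%). Entries under INTS13 of depleted cells had a median of 23 CpG dinucleotides and those under HDGF 12, against 22 over all entries. The E-box was in 17.02% of the entries under INTS13 of depleted cells (interval 14.6 to 19.6), 7.61% of those under HDGF (interval 5.16 to 10.7) and 8.88% of all. The YY1 core was in 13.8% of the entries under INTS13 of depleted cells (interval 11.6 to 16.2), 5.77% of those under HDGF (interval 3.65 to 8.61) and 5.71% of all. Where HDGF lay over the same entry as INTS13 of depleted cells, 8.93% of 112 entries had an E-box (interval 4.36 to 15.8) and 7.14% a YY1 core (interval 3.13 to 13.6), and where it did not, 18.2% and 14.8% of 793. Entries under INTS13 in both depleted and control cells had the most, with the E-box in 23.7% and the YY1 core in 24.2% of 215. The TATA box was less frequent under INTS13 of depleted cells, at 6.19% (interval 4.71 to 7.96), than in all entries, at 9.63%. CpG content and distance from the start move with these counts, and their part was not tested.

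snRNA genes are those with which Integrator was first linked. They have no start entry, so a summit within 1 kb of either end was counted, which 14% of all 59675 RefSeq genes had for INTS13 after HDGF depletion, 12.7% for HDGF control and 3.79% for INTS13 control. INTS13 was at 13 of 20 snRNA genes in depleted cells (65%) and at 12 in control cells, and HDGF control was at 2 (10%), a share near that of all RefSeq genes. Because snRNA genes exist in near-identical copies, the absence of a peak at one of them is uncertain. At RNU11, which encodes the U11 snRNA of the minor spliceosome, the INTS13 peak of depleted cells reached 47 reads (fold 9.24, chr1:28648362-28649271) and covered the gene, and an HDGF peak of 22 reads (fold 2.99, chr1:28649004-28649582) lay 270 bp from the gene and overlapped the INTS13 peak. At RNU5A-1, a U5 snRNA gene, the INTS13 peak of depleted cells (16 reads, fold 3.27) and the HDGF peak (23 reads, fold 3.12) did not overlap. The other 11 had INTS13 of depleted cells and no HDGF summit. RNU2-2, a U2 gene, had 41 reads and its nearest HDGF peak 1331 bp away, RNU5F-1 had 30 reads and HDGF 13672 bp away, and RNVU1-7, a variant U1 gene, had 23 reads and HDGF 27242 bp away. RNU4-2, a U4 gene, had 17 reads and HDGF 21904 bp away, and RNU7-1, the U7 snRNA of histone pre-mRNA processing, had 21 reads and HDGF 1040 bp away.

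Among genes transcribed by RNA polymerase III, INTS13 of depleted cells was at RNY1, RNY3 and RMRP, 3 of 18, and HDGF control at RNU6-1, RNU6-9, RNY4 and RNY5, 4 of 18, with none in common. These are 16.7% and 22.2%, against 14% and 12.7% of all RefSeq genes, of which 5.93% had both.

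Replication-dependent histone genes, whose transcripts end in a stem-loop in place of a poly(A) tail, had INTS13 of depleted cells at 16 of 51 starts and HDGF control at 0 of 51, against 13.9% and 10.3% of all starts. The 16 starts share 11 peaks, because paired histone genes face each other. H2AC17 and H2BC17 share a peak of 19 reads (fold 3.85, chr6:27893444-27893828), 3142 bp from the nearest HDGF peak, and H2AC14 and H2BC14 share one of 18 reads (fold 3.66, chr6:27815043-27815478), 9736 bp from HDGF. The smallest gap to an HDGF peak over the 16 was 1770 bp and the median 5634 bp. INTS13 control was at 1 of the 51. Near-identical histone copies make single genes uncertain.

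Ribosomal protein genes had INTS13 of depleted cells at 18 of 44 starts (40.9%) and HDGF control at 9 (20.5%), against 13.9% and 10.3% of all starts, with both at 7, against 4.16%. INTS13 control was at 5. At RPL32 the INTS13 peak of depleted cells (23 reads) and the HDGF peak (20 reads) overlapped downstream of the start, at 930 and 700 bp. RPL10 had INTS13 alone (22 reads, 464 bp downstream), with a peak that shared bases with an HDGF peak whose summit lay beyond 1 kb. RPS12, RPL4 and RPS6 also had INTS13 alone, with 21, 20 and 20 reads and HDGF peaks 108, 275 and 326 bp from them. Over the 18 starts the median gap to an HDGF peak was 337 bp, against 1094 bp over all 2200 starts with INTS13 of depleted cells. At the 3′ ends of the ribosomal protein genes HDGF control was at 26 of 44 and INTS13 of depleted cells at 8, against 14.3% and 10.8% of all ends.

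Stress response genes, which code for enzymes and factors induced by amino acid or glucose shortage, had INTS13 of depleted cells at 13 of 29 starts (44.8%) and HDGF control at 7 (24.1%), with both at 5, against 13.9%, 10.3% and 4.16% of all starts. ATF3, a stress-induced transcription factor, had overlapping peaks, with 17 reads for INTS13 of depleted cells 203 bp downstream and 24 reads for HDGF 318 bp upstream of the start. XBP1, a factor of the unfolded protein response, had its nearest INTS13 summit 951 bp downstream and its nearest HDGF summit 856 bp upstream. It was also counted among the starts with overlapping peaks of both lists. SESN2, an inhibitor of mTORC1 signalling, had 26 INTS13 reads 119 bp from the start, and the peak shared bases with an HDGF peak whose summit lay beyond 1 kb. ATF4, the central factor of the integrated stress response, had 18 INTS13 reads and an HDGF peak 291 bp away. DDIT3 and the amino acid transporter gene SLC7A5 had HDGF alone. Glycolysis genes were at 6 of 23 for INTS13 of depleted cells and 3 for HDGF, with both at ALDOA and PGAM1 and HDGF alone at GAPDH.

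Autophagy and lysosome genes had INTS13 of depleted cells at 10 of 33 starts (30.3%) and HDGF control at 5 (15.2%), against 13.9% and 10.3% of all starts. Both were at 1 of the 33, ATG7, against 4.16% of all starts. The median distance of INTS13 from the start was 149.5 bp over the 10 starts, against 479 bp over all 2200 starts with INTS13 and 87.5 bp over the 4 of the polymerase II pausing list. The median gap to an HDGF peak was 6394 bp, against 1094 bp over all 2200. LAMP1, a major lysosomal membrane protein, had 46 reads (fold 9.04, chr13:113296831-113297298), over the promoter shown above with its 6 E-boxes, and the nearest HDGF peak on that chromosome was 13080303 bp away. Chromosome 13 held 11474 HDGF control peaks but none over that whole stretch, so the gap is regional and not particular to LAMP1. ATG3, the enzyme that conjugates LC3, had 32 reads 10 bp from its start and HDGF 5396 bp away. CTSA, the gene of cathepsin A, had 26 reads 4 bp from its start and HDGF 5779 bp away. All 3 had an INTS13 control peak. SQSTM1, BECN1, NPC1 and GAA had HDGF alone, with 19 to 22 reads and summits 587 to 991 bp from the start.

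The other lists read against the same 13.9% and 10.3% of all starts, and counts of starts with both against 4.16%. A list of transcription factor genes, many of them zinc finger genes, had INTS13 of depleted cells at 4 of 19 starts and HDGF control at 7, with both at ZNF592 and GABPA, where the INTS13 summit lay downstream of the start and the HDGF summit upstream. Oxidative phosphorylation genes were at 6 and 7 of 25, with both at ATP5PO, a subunit of ATP synthase, where 170 bp separated the peaks. Of 30 cell cycle genes 5 had INTS13 and 7 had HDGF, with both at CDK4 and AURKB and HDGF alone at MCM2, E2F1, CDC25A and CDC25B. Immediate early genes were at 3 and 2 of 25, with ATF3 at both, and cilia genes at 4 and 4 of 35 with none at both. Polymerase II pausing, cleavage and termination genes were at 4 and 0 of 32. Those 4 were CPSF2, a subunit of the cleavage and polyadenylation factor (31 reads, 15 bp from the start), POLR2A, the largest subunit of polymerase II (23 reads), MEPCE and AFF4. Of the Integrator subunits, INTS14 had INTS13 of depleted cells, 992 bp from its start, and INTS6L and NABP2 had HDGF, out of 16. The HDGF gene itself had INTS13 of depleted cells (18 reads, 240 bp downstream of the start) and no HDGF summit within 1 kb. Genes of other tissues, which HEK293T cells would mostly not use, were at 1 and 0 of 11 for liver, 0 and 1 of 9 for blood, 3 and 3 of 11 for muscle and 0 and 0 of 9 for neurons and glia. With lists of this length a list's share has a wide counting error, and nothing particular to any of them is claimed.

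**Figure D5:**
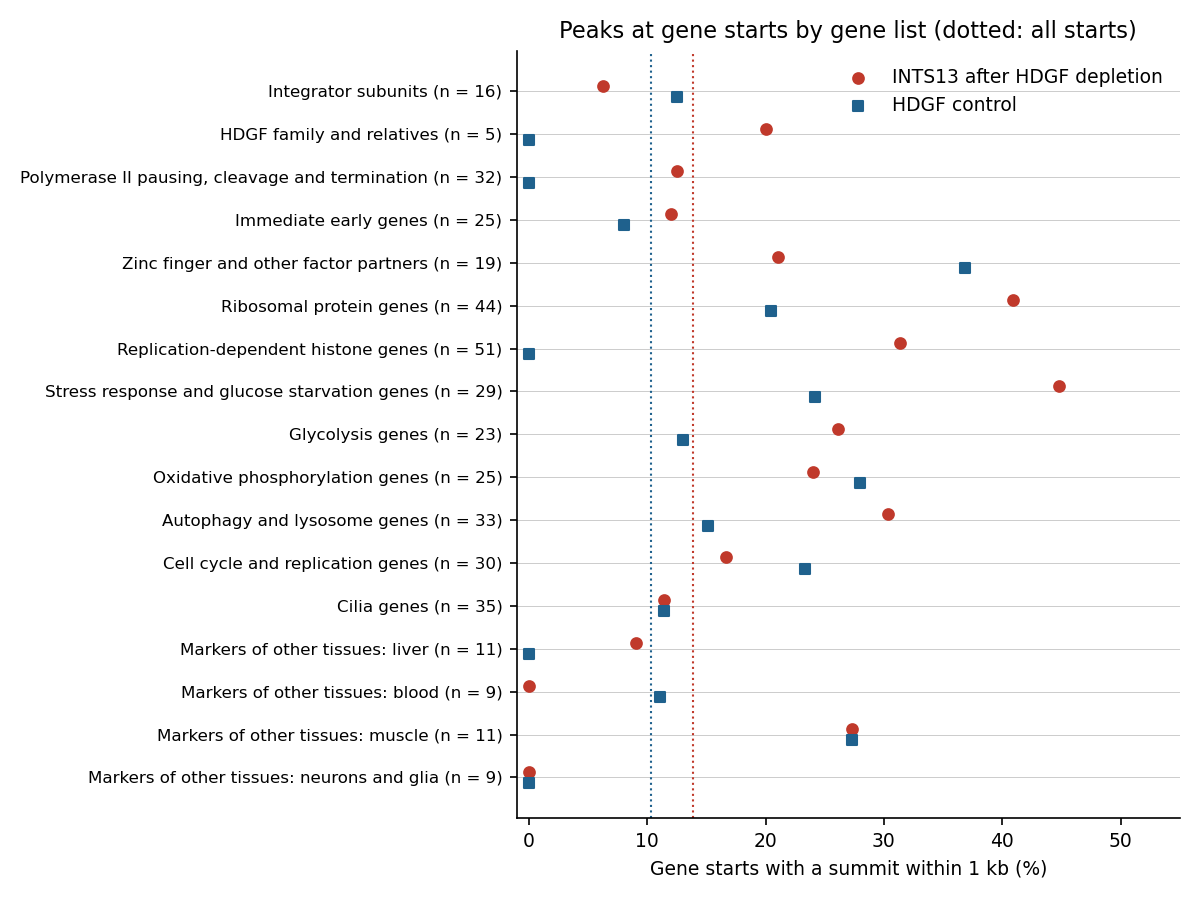
For each list of protein-coding genes the percentage of starts with a summit within 1 kb is plotted for INTS13 after HDGF depletion (circles) and HDGF control (squares), with n the starts counted and dotted lines at the 13.9% and 10.3% of all starts. For INTS13 after HDGF depletion 10 of the 17 lists lie to the right of its line, from 16.7% for cell cycle genes to 44.8% for stress response genes, and HDGF control is at 0% in 5 lists (HDGF family, polymerase II pausing, histones, liver, neurons and glia).

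The starts with the strongest overlapping peaks of both lists belonged to genes of varied function, several of which are neighbours on their chromosome. FBXO28, an F-box protein of ubiquitin ligases, had 26 INTS13 reads of depleted cells 5 bp from its start (chr1:224113925-224115037) and 34 HDGF reads 578 bp upstream (chr1:224113136-224114180). LIN9, a subunit of the MuvB complex that controls cell cycle genes, had 25 INTS13 reads 426 bp downstream (chr1:226308184-226309629) and 40 HDGF reads 970 bp upstream (chr1:226309524-226313701). ACBD3, a Golgi scaffold protein, had 30 INTS13 reads 243 bp upstream and 32 HDGF reads 580 bp upstream. DNAJC8, a splicing-associated chaperone, had 30 INTS13 reads 41 bp upstream and 29 HDGF reads 238 bp upstream. At these 4 genes HDGF was the farther from the start. KDELR3, a receptor that returns proteins to the endoplasmic reticulum, DDX17, an RNA helicase, ZNF747, a zinc finger gene, and PSEN2, a presenilin, showed the same order, with HDGF summits 696 to 856 bp from the start. SPANXB1 had both summits close to the start, at 39 and 55 bp (43 and 35 reads), but has near-identical copies on X and is uncertain. CNIH4, a cargo receptor, had INTS13 578 bp and HDGF 384 bp upstream. All 10 also had an INTS13 control summit within 1 kb, and 6 of them lie on chromosome 1. FBXO28, CNIH4, ACBD3, LIN9 and PSEN2 start within 1 stretch of it, from 224114111 to 226870616. KDELR3 and DDX17 start at 38468096 and 38506311 on chromosome 22. The 10 are therefore not independent places.

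INTS13 without HDGF was strongest at LAMP1, followed by TM2D1 (42 reads, 95 bp downstream, HDGF peak 542 bp away), ASH1L, a histone methyltransferase (40 reads, HDGF 1170 bp away), and PARP1, a DNA repair enzyme (35 reads). The PARP1 peak shares bases with an HDGF peak whose summit lies beyond 1 kb of the start. CLCN7, a lysosomal chloride transporter, had 34 reads 26 bp from its start and HDGF 19569 bp away. ATG3, KDM4A, a histone demethylase, and NPM1, a nucleolar protein, had 32 reads each, with HDGF 5396, 773 and 358 bp away. All 8 had an INTS13 control summit within 1 kb. HDGF without INTS13 of depleted cells was strongest at POLGARF, read from the locus of the mitochondrial polymerase POLG (38 reads), CSK, a kinase that restrains Src kinases (35 reads, 671 bp upstream, chr15:74786461-74788402), EIF4EBP2, a repressor of translation (32 reads, 465 bp upstream, chr10:70403364-70403988), PIGV and TMEM187 (32 reads each), and AGAP3, ANKRD34A and EIF3I (29 reads each). None of the 8 HDGF summits lay closer than 457 bp to its start, and none of these genes had an INTS13 control summit within 1 kb.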

How the data were processed

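ChIP-seq peak lists of HEK293T cells were used as deposited, 1 per ChIP group. Per the submitters' processing notes the authors used FastQC, Trimmomatic, Bowtie, Picard and MACS2 with the build hg38; versions, settings, the way replicates were combined and the use of inputs were not given in the sources used here. For each deposited peak the authors give an integer score, a fold enrichment at the summit (a ratio over background), a −log10 p, a −log10 q and the summit offset. They served to describe, rank or filter the peaks of 1 list at a time. The score was not used.

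Peaks on other sequences than chromosomes 1 to 22, X and Y were left out (30 of the INTS13 depletion list, 23 of HDGF control and 16 of INTS13 control). A single common base made an overlap. Starts and strands came from a RefSeq promoter table (GRCh38.p14) for 15841 of 20033 protein-coding genes, and a summit within 1 kb counted; genes without an entry, and all snRNA genes, were not counted at starts. Where the table gave no strand, either end of the gene was used. Depth was read from the steps of the deposited folds. Inputs were not analysed here. Equal length means the 31233 strongest peaks by −log10 p. That value takes few steps, so many peaks are tied, and those tied at the cut were picked at even spacing along the genome. Ties at the edge of a strength class were split between classes in a fixed order, so neighbouring classes can share a value. Named genes were the 10 starts with both proteins in overlapping peaks and the highest weaker rank of −log10 q, the 8 with INTS13 only and the 8 with HDGF only of the highest −log10 q, and up to 4 members per class of each gene list. "Only" refers to summits within 1 kb of the start. The sites, gene lists and rules were chosen with earlier results of these data known. The interval functions were tested on simulated data. Python 3.11.15, pandas 2.3.3, NumPy 2.4.6, SciPy 1.17.1 and matplotlib 3.10.9 were used. Alternatives tried were stricter overlap and q-value settings, equal list lengths, other windows, and leaving out chromosomes, wide HDGF peaks or peaks common to the 5 lists.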

Additional observations from a re-analysis of the deposited data

How the results depend on the processing

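The main share of INTS13 peaks of depleted cells at an HDGF control site (25.8%) and the main share of HDGF sites with such a peak (23.2%) moved to 6.61% and 6.57% when at least 50% of both peaks had to be shared, 13.5% and 13.5% for summits within 250 bp, 26.9% and 22.6% at a −log10 q of at least 3 in both lists, 59.6% and 31.6% at a −log10 q of at least 10, 27.5% and 22.5% with both lists at 31233 peaks, 14.9% and 13.1% without chromosomes 1, 13, 22 and X, 21.7% and 21.96% without HDGF peaks over 2 kb, and 21.5% and 20.2% without peaks that overlap all 5 lists. The cause was not tested. The 659 starts with both proteins became 132 with a window of 500 bp, 2360 with 2500 bp, 1015 when any base of the peak counted, 244 at a −log10 q of at least 3, 168 with both lists at 31233 peaks, and 354 when the peaks had to overlap. Counted at either end of all 20033 protein-coding genes, an alternative chosen after seeing the data, they were 1813. The ratio of INTS13 summit density inside to outside HDGF peaks (11.7), whose alternatives were also chosen after seeing the data, was 23.8 at a −log10 q of at least 3 and 31.3 with both lists at 31233 peaks; it was 11.2 without chromosomes 1, 13, 22 and X, 10.2 without HDGF peaks over 2 kb and 10.1 without peaks that overlap all 5 lists. No paired analysis was possible because each group has 1 list over both replicates, and for the same reason no replicate could be left out. With 4.20 background reads per position in the depletion list and 6.69 in HDGF control, sites of few reads cannot be told from unoccupied ones, and a site without a peak is one not detected at this depth.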
